A study of Mus musculus with 9 samples.

Results

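The miR-378 family was followed through 3 cell populations sorted at embryonic day 14.5 from the lateral cortex of mice of the strain C57BL/6. The family was taken as 4 mature miRNAs chosen by name, mmu-miR-378a-5p, mmu-miR-378b, mmu-miR-378c and mmu-miR-378d, written below without the species prefix. Of these, 3 had a row among the 1059 mature names counted, and miR-378b was not analysed here. The populations were proliferating progenitors, titled negative for the reporter signals R and G, differentiating progenitors, titled R positive and G negative, and newborn neurons, titled G positive, with 3 small RNA libraries each. Cells were separated by the fluorescence of endogenous reporters, and the labels do not say which promoters drive them. The labels do not say whether libraries came from separate litters or pools, so the p-values measure the spread between these libraries, which may be technical. The family was chosen because members were low in newborn neurons, so the values in neurons are given as a description without a test, and only the step between the progenitor populations was tested. Being low in neurons is judged against progenitor libraries, so the tested step is not wholly independent of that choice.

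A miRNA is a short RNA that guides Argonaute proteins to messenger RNAs, mostly through its seed, bases 2 to 8 counted from the 5′ end. The founding hairpin of this family, miR-378a, lies in an intron of Ppargc1b, which encodes a coactivator of mitochondrial and metabolic genes, and the family is best known from skeletal muscle, brown fat and liver metabolism. Genes named b, c and d lie at other places in the genome and give rise to mature miRNAs of closely similar sequence, while miR-378a-5p comes from the opposite arm of the founding hairpin.

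The mature sequences that bear on how reads can be told apart are those of the members b, c and d, which were found in the RefSeq table for GRCm38.p6. They are shown 5′ to 3′ with the seed in capitals, first the 2 counted members and then miR-378b, which was not counted.
miR-378c: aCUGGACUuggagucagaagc
miR-378d: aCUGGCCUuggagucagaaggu
miR-378b: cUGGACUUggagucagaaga
Over 21 aligned bases, miR-378c and miR-378d were identical at 19. The 2 differences, with positions counted from the 5′ end of miR-378c, were A6C and C21G, and A6C falls inside the seed. The counted members c and d therefore carry different seeds, CUGGACU and CUGGCCU. miR-378b starts 1 base further along and matches miR-378c at 19 of 20 aligned bases, with C21A at its 3′ end, so that its seed, UGGACUU, is shifted by 1 base. No other mature miRNA among those compared carried any of the 3 seeds. Mature miRNAs and hairpins of 1 chromosome were left out of all sequence and folding comparisons made here. Neither arm of miR-378a was among those compared, so whether either shares one of these seeds was not examined. The longest stretch shared with a mature miRNA outside the family was 8 bases for each of the 3.

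The genes of the 3 sequenced members lie on different chromosomes. On GRCm38, mature miR-378c is at chr14:46954905-46954925 on the minus strand, in an intron of the protein-coding gene Samd4, which is on the opposite strand. Mature miR-378d is at chr10:126710355-126710376 on the minus strand and overlaps no other annotated gene, the nearest protein-coding gene being Atp23, 158036 bases away. Mature miR-378b is at chr11:88352839-88352858 on the plus strand, in an intron of Msi2 and opposite to it in strand. The place of the mature RNA within the annotated hairpin differs as well. miR-378c takes bases 4 to 24 of 99 and miR-378d bases 16 to 37 of 110, both toward the 5′ end, whereas miR-378b takes bases 67 to 86 of 92, toward the 3′ end. The predicted folding energy of the miR-378c hairpin was -27.0 kcal/mol, or -0.273 per base, and 6.77% of 1005 mouse hairpins were less stable per base. For the miR-378d hairpin it was -35.0 kcal/mol, or -0.318 per base, and 17.0% were less stable. For that of miR-378b it was -31.1 kcal/mol, or -0.338 per base, with 24.1% less stable, and all 3 lay on the weaker side of the median of -0.406 per base.

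Library totals of counted miRNAs ran from 821155 to 3856484. miR-9-5p, the most abundant miRNA counted, took 62.5% to 69.0% of the counts of every library. Nearly all tested miRNAs named with an arm were 5p arms. Shares and ranks given here are therefore not those among all miRNAs of the cells. miR-124-5p, from a neuronal miRNA gene, was at 38.0 to 82.8 CPM in proliferating progenitors, 96.1 to 250.1 CPM in differentiating progenitors and 317 to 503 CPM in newborn neurons, where CPM are counts scaled to a library total of 1000000 with TMM factors. Other miRNAs known from neurons did not all rise. miR-129-5p went the other way, at 594 to 764, 296 to 422 and 178 to 253 CPM in the same order. miR-218-5p was at 1158 to 1189, 1160 to 1569 and 1281 to 1957 CPM. The low miR-138-5p was at 3.79 to 6.55, 3.56 to 7.85 and 13.9 to 23.1 CPM. miRNAs of other cell types were also counted. Levels summed over the 2 erythroid markers counted of 3 listed were 260.5 to 354 CPM in proliferating progenitors. They were 0.881 to 2.86 CPM in differentiating progenitors and 0.00 to 2.31 CPM in neurons. miR-486a-5p, also known from erythroid cells but not listed, was at 476 to 810 CPM in proliferating progenitors. It was at 22.0 to 39.9 CPM in differentiating progenitors and 83.0 to 105 CPM in neurons. The 3 mural or mesenchymal markers counted of 4 listed summed to 433 to 571 CPM, 37.1 to 39.9 CPM and 12.3 to 34.7 CPM in the same order.

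The counts of the members did not repeat each other. miR-378c and miR-378d had 4246 and 1418 counts over the 9 libraries, were equal in 0 of 9 libraries, and differed by 66.6% of the larger total. Each had a single row in the table. The row nearest to miR-378c among all rows of at least 50 counts was that of miR-129-5p, which differed by 22.4% of the larger total, and the row nearest to miR-378d was that of miR-25-5p, which differed by 24.1%. No member was therefore merged with another name. These comparisons do not show where reads of the near-identical miR-378b, or of the 3p arm of miR-378a, which was not analysed here, were counted. The level of miR-378c is accordingly uncertain as a level of that gene alone, and the same holds for miR-378d to the extent that the counting allowed mismatches, which is not given in the sources used here.

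miR-378c was the most abundant of the counted members and was lower in each later population. Replicates 1 to 3 of the proliferating progenitors held 774, 592 and 490 counts of it, those of the differentiating progenitors 557, 369 and 639, and those of the newborn neurons 415, 274 and 136. On the CPM scale the proliferating progenitors were at 587, 605 and 641, the differentiating progenitors at 398, 325 and 455, and the neurons at 107, 145 and 105. All proliferating progenitor libraries were above all differentiating progenitor libraries, which were above all neuron libraries. The means were 611 ± 27.8 CPM, 393 ± 65.1 CPM and 119 ± 22.5 CPM (SD, n = 3 each).

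From proliferating to differentiating progenitors miR-378c fell 1.55-fold (log2 change -0.64, SE 0.17, edgeR quasi-likelihood test with Benjamini-Hochberg adjustment over 188 miRNAs, adjusted p = 0.0177). At this step 7.98% of the tested miRNAs were called lower, and 16.0% were called in either direction. The call did not hold in 3 of the 9 fits that each left out 1 library. Its edgeR adjusted p was 0.0505 without replicate 1 and 0.0558 without replicate 3 of the proliferating progenitors, and 0.112 without replicate 2 of the differentiating progenitors, where the log2 change was -0.51. In the neurons, the population on which the family was chosen, miR-378c was 3.31-fold below differentiating progenitors (log2 change -1.73, SE 0.18) and 5.15-fold below proliferating progenitors (log2 change -2.36, SE 0.18). Of the whole log2 difference between proliferating progenitors and neurons, 26.9% lay at the first step.

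miR-378d, whose seed differs from that of miR-378c by the single change A6C, was less abundant and followed the same order of populations. The libraries of proliferating progenitors held 242, 183 and 149 counts of it, those of differentiating progenitors 196, 131 and 197, and those of neurons 152, 107 and 61. These were 183, 187 and 195 CPM, then 140.0, 115 and 140.2 CPM, then 39.1, 56.5 and 46.9 CPM. Again no library of one population overlapped with a library of another. The means were 189 ± 5.93 CPM, 132 ± 14.3 CPM and 47.5 ± 8.68 CPM (SD, n = 3 each).

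At the first step miR-378d had a log2 change of -0.51 (SE 0.19) that did not pass the threshold (edgeR adjusted p = 0.0731). It passed when only the 2 progenitor populations were fitted (edgeR adjusted p = 0.0398). It also passed when replicate 2 of the neurons was left out of the whole fit (log2 change -0.54, edgeR adjusted p = 0.0253). In neurons it was 2.80-fold below differentiating progenitors (log2 change -1.49, SE 0.19) and 3.995-fold below proliferating progenitors (log2 change -1.998, SE 0.20), and 25.6% of the latter log2 difference lay at the first step. Both members with enough reads to be tested were thus lowest in newborn neurons. Their libraries were lower without overlap in each comparison, as were those of 18.6% of the 188 miRNAs at the first step, 22.3% between differentiating progenitors and neurons and 31.9% between proliferating progenitors and neurons.

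**Figure D1:**
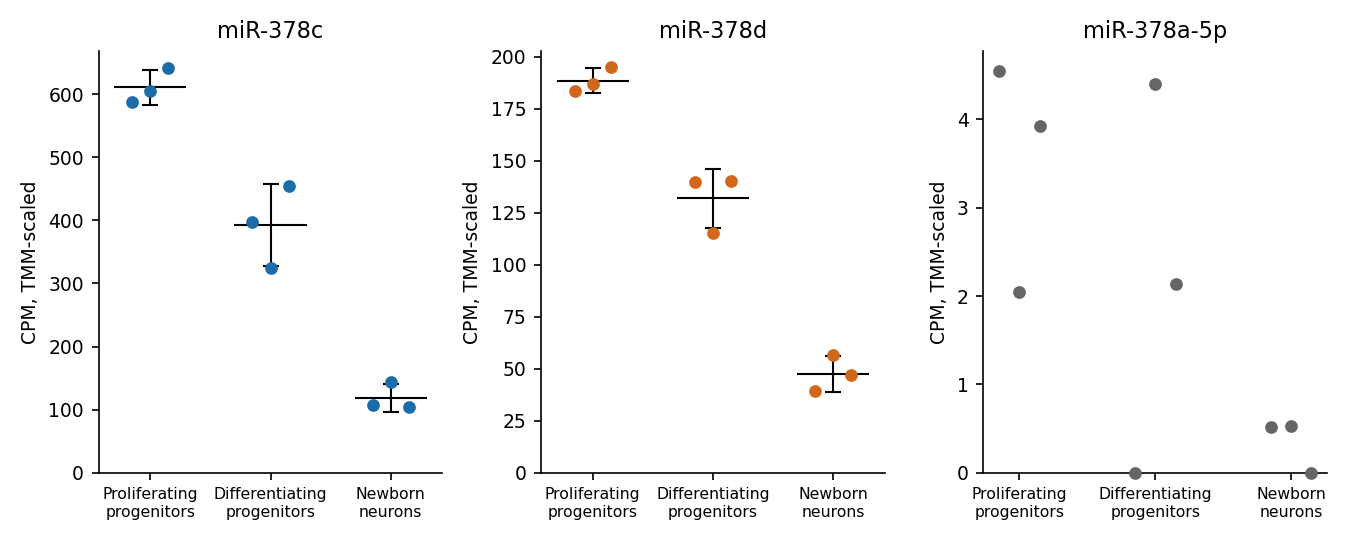
Level of each counted family member in every library, in CPM scaled by TMM factors, on axes that start at 0 and differ between panels. Points are single libraries; bars show the mean and SD of 3 libraries for miR-378c and miR-378d, and miR-378a-5p is shown as points only because no library held more than 6 counts. For miR-378c and miR-378d the 3 populations do not overlap.

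miR-378a-5p, from the other arm of the founding hairpin, was close to the limit of detection. The proliferating progenitor libraries held 6, 2 and 3 counts of it, the differentiating progenitor libraries 0, 5 and 3, and the neuron libraries 2, 1 and 0. The counts of the progenitor populations overlapped. The pooled level was 3.41 CPM of library totals in proliferating progenitors (11 counts, exact Poisson 95% interval 1.70 to 6.10 CPM), 2.002 CPM in differentiating progenitors (8 counts, 0.864 to 3.94 CPM) and 0.441 CPM in neurons (3 counts, 0.0909 to 1.29 CPM). The intervals cover counting error only. A count of 0 allows up to 3 counts, which is 2.18 CPM in replicate 1 of the differentiating progenitors and 2.81 CPM in replicate 3 of the neurons. This member did not pass the filter on low counts and was not tested. With no filter its log2 change at the first step was -0.80 (SE 0.72, edgeR adjusted p = 0.693), so that no difference between the progenitor populations was detectable at this depth.

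The spread between libraries exceeded counting error most clearly for miR-378c. Its coefficient of variation was 4.55% in proliferating progenitors, where counting alone gives 4.02%. It was 16.6% in differentiating progenitors, against 4.38% from counting, and 19.0% in neurons, against 6.03%. For miR-378d the values were 3.14%, 10.8% and 18.3%, against 7.23%, 7.57% and 9.68% from counting. Libraries of both members therefore lay closest together in proliferating progenitors. In neurons, replicate 3 was given the highest TMM factor of the 9 libraries, 1.22, and without that factor the 136 counts of miR-378c in that library stand for 127 in place of 105 CPM.

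Among the differentiating progenitors, replicate 2 was the lowest of the 3 libraries for both members. The order of replicates 1 and 3 for miR-378d depended on the scaling, with 140.0 and 140.2 CPM under TMM and 143 and 132 CPM of library totals. Over the 9 libraries the log2 CPM of both members had a Pearson correlation of 0.996, and after removing the mean of each population it was 0.86. These are descriptions over libraries that share their depth and scaling.

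The balance between both members was compared within libraries, which does not depend on the scaling. Of the summed counts of both, miR-378c made up 76.2%, 76.4% and 76.7% in the proliferating progenitor libraries, 74.0%, 73.8% and 76.4% in the differentiating ones, and 73.2%, 71.9% and 69.0% in those of neurons. The first 2 populations overlapped, and all neuron libraries were below all progenitor libraries. The 95% Wilson interval ran from 73.5% to 78.7% in replicate 1 of the proliferating progenitors and from 62.3% to 75.1% in replicate 3 of the neurons, so that the intervals of single libraries overlap between the populations. The log2 ratio of c to d was 1.69 ± 0.02, 1.56 ± 0.11 and 1.32 ± 0.15 (SD, n = 3 each). Between the progenitor populations it differed by -0.13, which did not pass (two-sided exact permutation test, p = 0.3), and 3 libraries against 3 cannot give a p below 0.1. Leaving out 1 library at a time gave differences from -0.20 to -0.09. In neurons the ratio was 0.25 below that of differentiating progenitors and 0.38 below that of proliferating progenitors on the log2 scale, values given without a test.

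**Figure D2:**
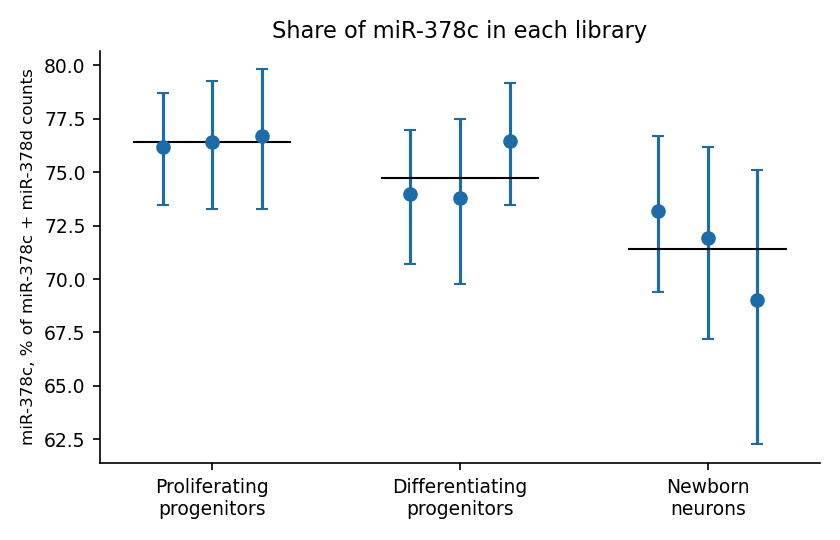
Share of miR-378c in the summed counts of miR-378c and miR-378d in each library, in percent, on an axis that does not start at 0. Points are single libraries with 95% Wilson intervals and horizontal lines are means of 3 libraries. The share runs from 76.2% to 76.7% in proliferating progenitors and from 69.0% to 73.2% in neurons.

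Among all tested miRNAs, miR-378c and miR-378d, 21 and 22 bases long, were above the median by mean CPM, except miR-378d in neurons. By mean CPM, miR-378c ranked 47 of 188 in the proliferating progenitors, 52 in the differentiating ones and 73 in neurons, and miR-378d ranked 68, 71 and 107. Ordered by log2 change from the lowest, miR-378c was at rank 23 and miR-378d at rank 28 of 188 at the first step, where the median change of all tested miRNAs was 0.08. From differentiating progenitors to neurons they were at ranks 8 and 11, and among the 77 miRNAs with at least 100 CPM in differentiating progenitors at ranks 1 and 4. From proliferating progenitors to neurons they were at ranks 12 and 16, and at ranks 5 and 7 of the 80 with at least 100 CPM in proliferating progenitors. The neuron ranks describe the values on which the family was chosen.

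**Figure D3:**
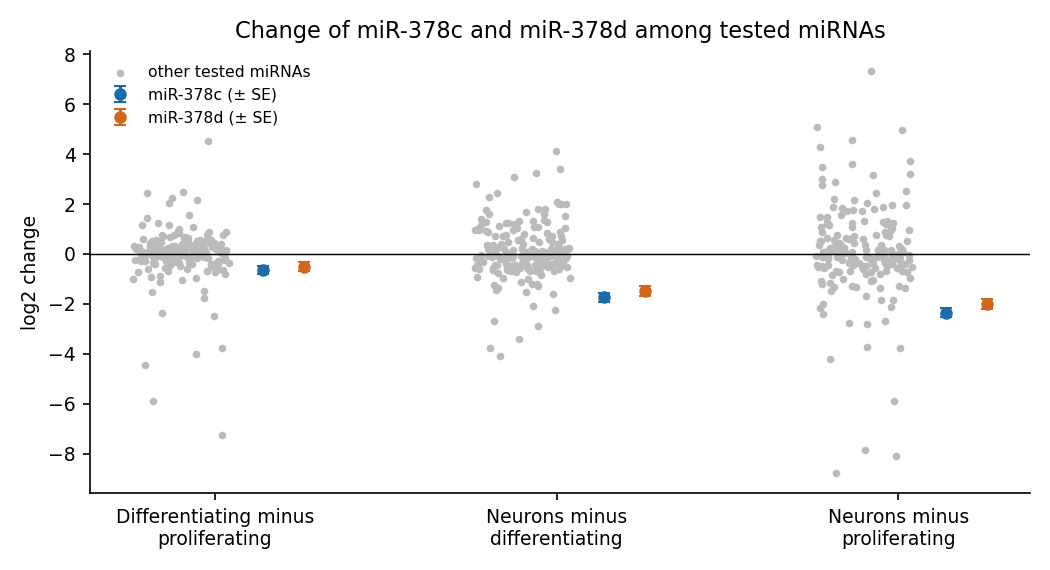
Log2 change of miR-378c and miR-378d, with SE, beside the other tested miRNAs in each comparison. Grey points are single miRNAs spread sideways at random. At the first step both members lie near the main body of values (-0.64 and -0.51), and in neurons below most of them (-1.73 and -1.49 against differentiating progenitors).

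The miRNAs whose log2 CPM over the 9 libraries was most like that of miR-378c were, after miR-378d, miR-92b-5p (Pearson r = 0.986), miR-504-5p (0.977), miR-574-5p (0.959), miR-450b-5p (0.959) and miR-224-5p (0.947). Of the 187 other tested miRNAs, 18 had a correlation over 0.9; any steady fall over the 3 populations gives a high value of this measure. miR-92b-5p, from the opposite arm of a hairpin related to the miR-17-92 group, had 358 ± 41.3 CPM in proliferating progenitors, 235 ± 57.3 CPM in differentiating progenitors and 82.9 ± 0.834 CPM in neurons (SD, n = 3 each). miR-504-5p went from 279.9 ± 25.7 through 216 ± 14.5 to 109.6 ± 12.9 CPM. The levels of miR-574-5p were low, from 18.0 ± 4.80 through 11.1 ± 2.13 to 4.14 ± 0.652 CPM. miR-450b-5p, an X-linked cluster member, had a larger span, from 129.6 ± 29.8 to 8.79 ± 3.16 CPM. miR-224-5p was at 431 ± 38.0 CPM and 407 ± 54.0 CPM in the progenitor populations and at 175 ± 18.0 CPM in neurons. With the mean of each population removed, the correlation with miR-378c was 0.86 for miR-378d and 0.63 for miR-92b-5p, and between -0.04 and 0.28 for the other 4.

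**Figure D4:**
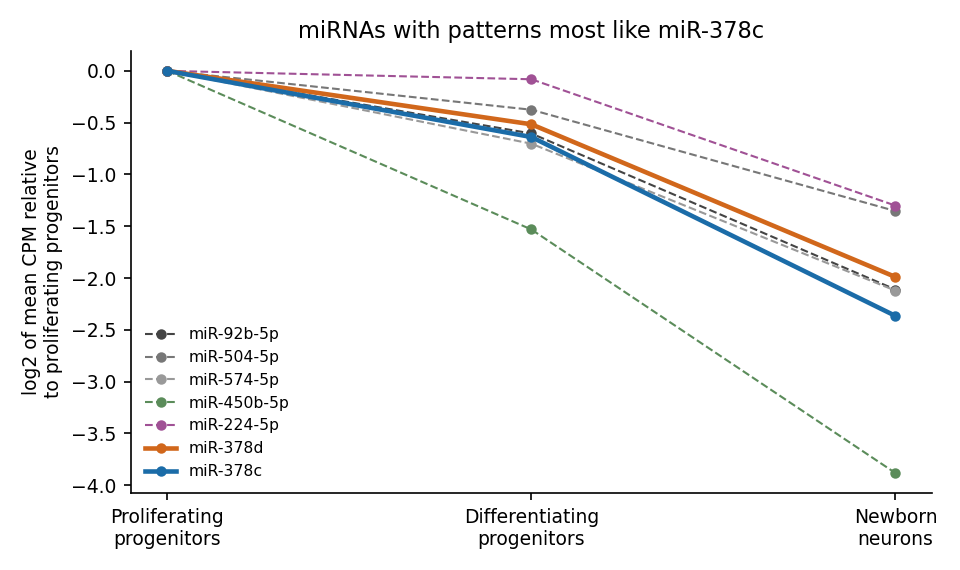
Log2 of the mean CPM of 3 libraries relative to proliferating progenitors for miR-378c, miR-378d and the 5 miRNAs outside the family with the most similar pattern. miR-92b-5p and miR-574-5p run close to both family members, the latter at low levels (4.14 CPM in neurons). miR-450b-5p falls further, and miR-224-5p differs little between the progenitor populations.

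Since the family is best known from muscle, miRNAs of muscle were listed beside it. Of 17 names, 8 had a row, and 7 of these had no count in any library. The exception was miR-499-5p, from an intron of a myosin heavy chain gene, whose 3 proliferating progenitor libraries held 13, 6 and 0 counts, the differentiating ones 1, 0 and 1, and those of neurons 4, 1 and 2. No muscle miRNA passed the filter. Over all 1052 miRNAs, only 560 had a count in any library and 188 passed the filter. The rows counted were 5p arms, so the more abundant 3p arms of miR-1 and miR-133 were not analysed here.

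Several markers of blood and mesenchymal cells also fell at the first step. Both tested erythroid miRNAs fell, miR-451a with a log2 change of -7.24 (SE 0.38, edgeR adjusted p = 2.30e-10) and miR-144-5p with one of -5.91 (SE 0.58, edgeR adjusted p = 2.31e-06). Of 3 tested haematopoietic miRNAs, miR-142a-5p fell (log2 change -4.03, SE 0.46, edgeR adjusted p = 1.06e-05). The others did not pass and pointed opposite ways, miR-155-5p with a log2 change of -0.98 (SE 0.36, edgeR adjusted p = 0.0732) and miR-146a-5p with one of 1.08 (SE 0.42, edgeR adjusted p = 0.0966). The single tested mural or mesenchymal miRNA, miR-143-3p, also fell, with a log2 change of -3.75 and SE of 0.28 (edgeR adjusted p = 1.49e-08). The single endothelial one, miR-126a-5p, had a log2 change of -0.90 (SE 0.32, edgeR adjusted p = 0.0638). The median change was -6.58 for the erythroid and -0.98 for the haematopoietic list, beside 0.08 for all tested miRNAs. The part of these cells in the fall of miR-378c between progenitor populations was not tested. Between differentiating progenitors and neurons the sum of the 5 haematopoietic markers counted went from between 20.7 and 37.0 CPM to between 8.44 and 9.01 CPM. The single endothelial marker counted was at 11.4 to 12.3 CPM and 5.28 to 12.3 CPM in these populations. The erythroid and mural sums are given above, with miR-486a-5p, which was higher in neurons than in differentiating progenitors. The part of these cells in the difference of miR-378c between differentiating progenitors and neurons was not tested either. In such sorted populations fewer cells of a type and less RNA per cell cannot be told apart.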

How the data were processed

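The authors deposited 1 table of whole-number read counts, 1 column per library, not normalised, as its values show. Per the submitters' processing notes, bcl2fastq 1.8.2, DESeq2 and the build mm10 were used, with no role given. The aligner, the counting tool and the treatment of mismatches and of reads matching several miRNAs are not given in the sources used here. Of 1433 rows, 222 without a database accession were left out. For each mature name the row with the largest total was kept, and names with at least 50 counts that differed by at most 2% were merged, which left 1052 miRNAs. No merged group held a family member.

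All 9 libraries were fitted together in R 4.3.3 by edgeR 4.0.16, with TMM factors, its filterByExpr filter, the quasi-likelihood test and no covariate. P-values had Benjamini-Hochberg adjustment over the 188 miRNAs that passed and a threshold of 0.05. SE are the size of the log2 change over the root of its F value. Log2 CPM for correlations used a prior count of 2, and ratios between members a pseudocount of 0.5. The procedure was tested on simulated data. Libraries of a population differed by more than sampling noise in all 9 pairs (chi-square per degree of freedom of at least 7.96). Hairpins were folded with ViennaRNA 2.7.2. Sequences are RefSeq's (GRCm38.p6), without the entries of the chromosome left out, and cover 3 of 4 members. Gene positions are GENCODE's on the same assembly, of which mm10 is another name. The sequence of miR-378a-5p is not shown.

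The members and lists were chosen with earlier results of these data known. The miRNAs named were all members, the 5 with the highest correlation with the most abundant member, and listed miRNAs called at the first step. miR-9-5p, miR-124-5p, miR-126a-5p, miR-129-5p, miR-138-5p, miR-146a-5p, miR-155-5p, miR-218-5p, miR-486a-5p and miR-499-5p were named in addition, after their values were seen. Alternatives covered scaling, filtering, DESeq2 1.42.0, the libraries fitted, the replicate number, the treatment of rows, and leaving out each library.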

Additional observations from a re-analysis of the deposited data

How the results depend on the processing

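In all 18 alternatives miR-378c and miR-378d had lower values in differentiating progenitors than in the proliferating ones, and their lowest in neurons. The first-step call of miR-378c held in 15 of 18. Its log2 change ran from -0.77 to -0.51 when 1 library was left out, with edgeR adjusted p from 0.00459 to 0.112, and from -0.72 to -0.57 otherwise, with adjusted p from 0.00783 to 0.0426. For miR-378d, leaving out 1 library gave -0.57 to -0.42, with edgeR adjusted p from 0.0253 to 0.224. With only the 2 progenitor populations fitted, its log2 change was -0.48 (edgeR adjusted p = 0.0398), and it stayed above the threshold in 16 of 18. The number of miRNAs called at that step, 30 (50 at an unadjusted p under 0.05), ran from 18 to 37 when 1 library was left out, the lowest without replicate 1 of the proliferating progenitors; the cause was not tested.

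The log2 differences of neurons from differentiating progenitors ran from -1.83 to -1.54 for miR-378c and from -1.56 to -1.31 for miR-378d over all alternatives, and those from proliferating progenitors from -2.48 to -2.19 and from -2.10 to -1.82. Whether replicate numbers pair the libraries could not be settled. Deviations of same-numbered libraries had a correlation over 0.1 in 4 of 9 pairs, and in 4 of 9 pairs each library was the best match of the other. With the replicate block, the first-step log2 changes were -0.64 (edgeR adjusted p = 0.0242) and -0.51 (edgeR adjusted p = 0.0876). Depth limits miR-378a-5p, with at most 6 counts in a library.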
